A study of Mus with 6 samples.

Results

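The 9 genes described here encode G protein-coupled receptors of the vascular endothelium and the receptor activity-modifying proteins (RAMPs) that work with one of them. They are S1pr1, Aplnr, Calcrl, Ramp2, Ramp3, Adgrl4, Adgrf5, Lpar6 and Gpr4, chosen by name, and all 9 were present among the 20893 genes of the deposited expression table. RNA sequencing had been carried out on cardiac microvascular endothelial cells of mice, isolated on magnetic beads by the presence of CD31 (the product of Pecam1) and the absence of CD45 (the product of Ptprc). Both groups had been operated on by left coronary artery ligation, a model of myocardial infarction, and differed in genotype: 3 libraries were wild type (WT) and 3 came from mice lacking the chemokine gene Ccl28 (KO), with replicate numbers 2, 3 and 4 in each. The genotype field of KO replicates 3 and 4 reads Ccl29-KO and Ccl30-KO, against their titles, and the titles were followed. Strain, sex, age, time after ligation and the way the deletion was made are not given in the sources used here. It is not stated whether each library is a separate animal, and the p-values therefore reflect the spread between these libraries, which may be technical only.

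Seven-transmembrane receptors bind a ligand outside the cell and pass the signal to heterotrimeric G proteins inside it. In endothelium S1PR1 binds sphingosine 1-phosphate (S1P) and holds junctions closed, APLNR binds apelin and ELABELA, and CALCRL binds adrenomedullin or CGRP according to which RAMP is paired with it. ADGRL4 and ADGRF5 are adhesion receptors with long extracellular parts, LPAR6 is a receptor of lysophosphatidic acid (LPA), and GPR4 senses extracellular protons and raises cyclic AMP.

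The series as a whole has features that touch every value below. The libraries held 36004457 to 40500067 reads assigned to genes. Ccl28 had 16, 11 and 24 reads in WT replicates 2, 3 and 4 and 0 in each KO library. The WT mean was 5.67-fold a floor of 3 reads set for each KO library, in reads not scaled to library size. Levels are FPKM, fragment counts scaled to transcript length and library size. They may be compared between genes only within the limit of the length trend given below. Log2 fold changes (KO over WT) were computed on log2(FPKM + 1), which makes changes of low genes look smaller, and were tested with limma, with a Benjamini-Hochberg adjusted p under 0.05 over 10806 tested genes as the threshold. At that threshold 25.8% of tested genes were lower in KO and 18.3% were higher, so a call is common in these data. Across those genes the fold change fell with transcript length (Spearman's rho -0.72 across genes, which are not independent replicates), and genotype and the length trend cannot be told apart. The fold change of each of the 9 genes is therefore also given with the smooth trend against length removed from every library, where 9.49% of genes were lower and 9.37% higher. The 10 endothelial markers summed to 4101 to 4181 FPKM in WT and 3830 to 4152 in KO, and Ptprc lay between 0.871 and 1.71 FPKM in all 6 libraries, although 9 of 12 tested leukocyte markers were higher in KO (5 with the length trend removed).

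Of the 9 genes, all of which passed the expression filter, 4 were lower in KO in limma, 3 were higher and 2 did not pass. The shares of all tested genes were 25.8% lower and 18.3% higher. S1pr1, Calcrl, Adgrl4 and Adgrf5 fell, by 1.32-fold to 1.66-fold in mean FPKM. Lpar6 rose 1.47-fold, Ramp2 1.28-fold and Ramp3 1.19-fold, but the differences of both RAMP genes were slightly below 0 once the length trend was removed. Aplnr and Gpr4 had overlapping groups. With the length trend removed the same 4 genes stayed lower and Lpar6 stayed higher, against 9.49% and 9.37% of all tested genes. The median log2 fold change of the 9 was -0.07, against -0.03 for all tested genes, and in 7 of the 9 the genotypes did not overlap, against 54.7% of all tested genes. As the cells were measured in bulk, fewer cells of a type and less RNA per cell cannot be told apart in any of these differences.

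**Figure D1:**
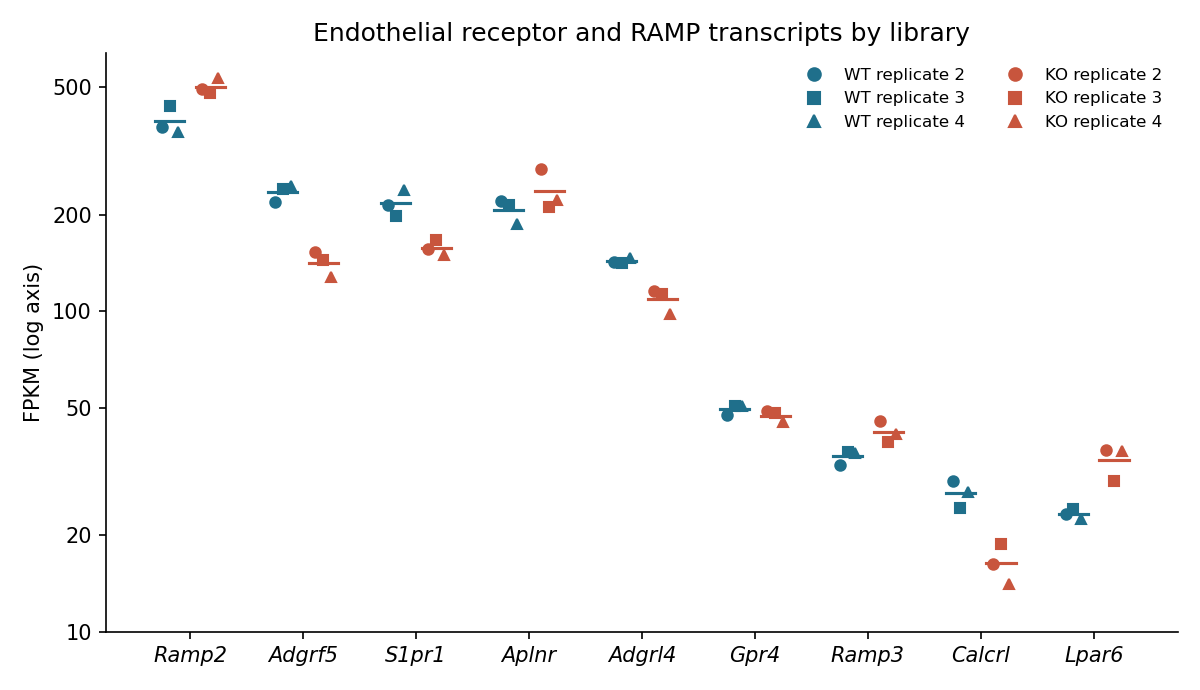
FPKM on a log axis for the 9 genes in each library, ordered by WT mean. Points are single libraries, shaped by replicate number, and horizontal lines are group means; the KO points of S1pr1, Adgrf5, Adgrl4 and Calcrl lie below all WT points, those of Lpar6 above them, and those of Ramp2 and Ramp3 also above them in FPKM as deposited, a difference not kept once the length trend is removed.

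Levels in WT ran from 23.3 FPKM (Lpar6) to 390.6 FPKM (Ramp2). Ramp2 was the most abundant of the 9 in WT, at 390.6 ± 39.3 FPKM (SD, n = 3), and ranked 133 among all tested genes by mean FPKM in both genotypes. Adgrf5, S1pr1 and Aplnr followed at 234.7 ± 14.1, 217.2 ± 19.8 and 207.1 ± 17.3 FPKM in WT, and the ranges of neighbours in this order overlapped. Adgrl4 (143.3 ± 2.87 FPKM), Gpr4 (49.5 ± 1.83), Ramp3 (35.3 ± 1.86), Calcrl (27.1 ± 2.68) and Lpar6 (23.3 ± 0.877) came next, with no overlap between neighbours in WT. In KO the order was Ramp2, Aplnr, S1pr1, Adgrf5, Adgrl4, Gpr4, Ramp3, Lpar6 and Calcrl. The KO ranges overlapped between S1pr1 and Adgrf5 and between Gpr4 and Ramp3. Adgrf5 thus went from the second place to the fourth, Aplnr from the fourth to the second, and Calcrl and Lpar6 exchanged the last places. The number of reads behind each value was 1875 or more in every library. The coefficient of variation between replicates ran from 2.0% (Adgrl4) to 10.1% (Ramp2) in WT and from 4.12% (Gpr4) to 14.8% (Aplnr) in KO.

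S1pr1 encodes the main S1P receptor of endothelium, coupled to Gi. Its gene (ID 13609) lies on chromosome 3 from 115710433 to 115715055 (GRCm38.p6). S1pr1 had 215, 198.7 and 238 FPKM in WT replicates 2, 3 and 4, and 156.6, 166.8 and 150 in the KO replicates of the same numbers. Every KO library lay under every WT library. The log2 fold change was -0.46 (SE 0.083, 95% interval -0.64 to -0.27, limma adjusted p = 0.00229). With the length trend removed it was again -0.46 (adjusted p = 0.0059), since genes near its transcript length of 3029 nt, from 2900 to 3163 nt, had a median of 0.01. S1pr1 provided 92.6% to 94.6% of the summed FPKM of the 5 S1P receptors in WT and 92.1% to 94.2% in KO, so the composition of this receptor set overlapped between genotypes.

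The other genes of S1P handling gave mixed values. Of 13 listed genes 9 were tested. Of these 4 fell and none rose in limma, against 25.8% and 18.3% of all tested genes, with a median of -0.09. With the length trend removed 3 fell and 2 rose, against 9.49% and 9.37% of all tested genes, and with no filter 2 of the listed genes fell. S1pr3, a receptor coupled to several G proteins, fell from 7 ± 1.29 to 3.92 ± 0.845 FPKM (adjusted p = 0.00499, and 0.0418 as adjusted p with the trend removed). The S1P lyase gene Sgpl1 fell from 7.65 ± 0.422 to 5.34 ± 0.939 FPKM, although its call was lost with the length trend removed (adjusted p = 0.0667), and the S1P phosphatase gene Sgpp1 fell from 4.69 ± 0.375 to 3.42 ± 0.201 (adjusted p = 0.0319 with the trend removed, and 0.0633 with quantile normalization). Spns2, whose product exports S1P from endothelial cells, was at 61.2 ± 1.88 FPKM in WT and 65.3 ± 2.54 in KO (adjusted p = 0.283, and 0.0445 as adjusted p with the trend removed). Sphk1, one of the kinases that make S1P, was at 0.902 ± 0.165 and 1.33 ± 0.296 FPKM (adjusted p = 0.0906, and 0.0426 as adjusted p with the trend removed). Apom, which encodes a plasma carrier of S1P, was near 0, at 0.109 and 0.142 FPKM on average. Of 9 markers of mural cells, which also carry S1pr3, 7 fell (6 with the trend removed), against 25.8% and 9.49% of all tested genes. Their summed level overlapped between genotypes, at 457.2 to 598.5 FPKM in WT and 343.3 to 536.7 in KO. The part of mural cells in the S1pr3 value was not tested.

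Aplnr encodes the apelin receptor, a gene known from veins and sprouting endothelium. The gene (ID 23796) spans chromosome 2 from 85136360 to 85139923, a span of 3564 bases that equals its implied transcript length. Aplnr had 220.1, 213.7 and 187.5 FPKM in the WT libraries and 276.9, 211.9 and 221.9 in the KO libraries. KO replicate 2 stood above the other 5 libraries, and KO replicate 3 lay within the WT range. This gave a log2 fold change of 0.19 (SE 0.11, interval -0.06 to 0.43, adjusted p = 0.186). Without KO replicate 2 it was 0.07 (adjusted p = 0.598), with quantile normalization it was -0.01, and with the length trend removed it was 0.25 (adjusted p = 0.123). In the authors' deposited table the log2 fold change of Aplnr was 0.25 with q = 0.0454, just past the same threshold.

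The ligand gene Apln had a coefficient of variation of 27.4% in WT and 29% in KO, above that of each of the 9 genes. Apln had 107, 60.7 and 89.9 FPKM in WT libraries against 48.4, 82.2 and 54.9 in KO libraries, with overlap (log2 fold change -0.47, adjusted p = 0.11). Without WT replicate 3 or KO replicate 3 Apln was called lower (adjusted p = 0.0216 and 0.018). Ackr3, an atypical receptor for CXCL12 and adrenomedullin placed in the same list, fell from 61.2 ± 1.22 to 41.9 ± 3.76 FPKM (adjusted p = 0.000808). Of 2 tested genes in that list 1 fell, before and after removal of the length trend, against 25.8% and 9.49% of all tested genes. The medians of these 2 genes were -0.50 and -0.55.

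CALCRL is the seven-transmembrane part of the adrenomedullin and CGRP receptors. Calcrl (ID 54598) lies on chromosome 2 from 84330626 to 84425405. It had 29.6, 24.3 and 27.4 FPKM in WT and 16.3, 18.8 and 14.1 in KO, and the genotypes did not overlap. This gave a log2 fold change of -0.70 (SE 0.11, interval -0.94 to -0.45, adjusted p = 0.00114), the second largest fall among the 9 in the values as deposited. With the length trend removed it was -0.49 (adjusted p = 0.0111), then the largest fall of the 9, and genes between 4771 and 5231 nt, around its own 4996 nt, had a median of -0.20.

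RAMP2 carries CALCRL to the cell surface and gives it affinity for adrenomedullin, and RAMP3 gives a second adrenomedullin receptor with other trafficking. Ramp2 (ID 54409) lies on chromosome 11 from 101246334 to 101248250 and Ramp3 (ID 56089) on the same chromosome from 6658506 to 6677478. Ramp2 had 375.4, 435.2 and 361.1 FPKM in WT and 492.2, 479.4 and 532.3 in KO. Ramp3 had 33.1, 36.4 and 36.3 FPKM in WT and 45.4, 39.2 and 41.3 in KO. In both genes all KO libraries lay above all WT libraries.

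The log2 fold change of Ramp2 was 0.36 (SE 0.089, interval 0.16 to 0.56, adjusted p = 0.00949), and it became -0.07 with the length trend removed (adjusted p = 0.588). For Ramp3 it was 0.24 (SE 0.078, interval 0.07 to 0.42, adjusted p = 0.0302), and it became -0.05 with that removal (adjusted p = 0.734). These are the shortest transcripts of the 9, at 872 and 1397 nt, and tested genes near them were mostly higher in KO. Between 698 and 1091 nt the median log2 fold change was 0.44 and 75.2% of 500 genes rose. Between 1274 and 1531 nt it was 0.29 and 51.2% rose. With quantile normalization Ramp2 was at 0.04 (adjusted p = 0.718) and Ramp3 at 0.20 (adjusted p = 0.0811). The Ramp3 call was also lost without WT replicate 2 (adjusted p = 0.0814), WT replicate 4 (adjusted p = 0.0666), KO replicate 4 (adjusted p = 0.0608) or, most, KO replicate 2 (adjusted p = 0.117), and with no filter on low values (adjusted p = 0.0663).

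Per length, RAMP2 transcripts were far in excess of those of the receptor they serve. The FPKM ratio of Ramp2 to Calcrl was 12.7, 17.9 and 13.2 in WT and 30.2, 25.6 and 37.7 in KO. All KO ratios lay above all WT ratios, a 2.13-fold difference (log2 difference 1.09), with p = 0.1 in an exact two-sided permutation test, the minimum for 3 libraries against 3 (adjusted p = 0.2 over the 4 quantities tested this way). The ratio of Ramp3 to Calcrl was 1.12, 1.5 and 1.32 in WT and 2.79, 2.09 and 2.93 in KO, a 1.97-fold difference with the same exact p of 0.1 (adjusted p = 0.2). With the length trend removed the log2 difference of Ramp2 to Calcrl went from 1.09 to 0.42 (exact p = 0.2) and that of Ramp3 to Calcrl from 0.98 to 0.45 (exact p = 0.1). Ratios as deposited had no pseudocount, while the trend was removed from log2(FPKM + 1) values. Part of each shift may therefore come from the pseudocount. The ratio of Ramp2 to Ramp3 overlapped between genotypes, at 11.1 ± 1.01 in WT and 12 ± 1.05 in KO (exact p = 0.4), and its log2 difference turned from 0.11 to -0.02 with the trend removed. Ramp2 made up 90.8% to 92.1% of the summed FPKM of Ramp1, Ramp2 and Ramp3 in WT and 91.5% to 92.7% in KO.

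**Figure D2:**
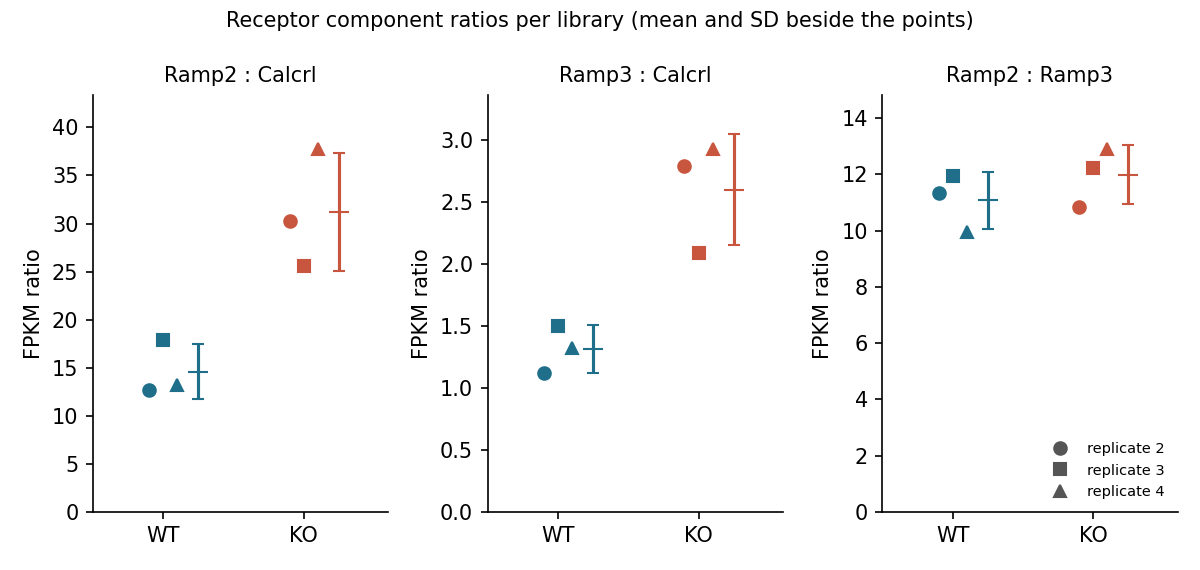
FPKM ratios of Ramp2 to Calcrl, Ramp3 to Calcrl and Ramp2 to Ramp3 in each library, with the group mean and SD (n = 3) beside the points. The ratios to Calcrl were higher in all KO libraries than in all WT libraries in FPKM as deposited, and the Ramp2 to Ramp3 ratio overlapped.

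Adm, the adrenomedullin gene, fell from 20.1 ± 1.71 to 17 ± 0.384 FPKM (log2 fold change -0.23, adjusted p = 0.0403). Its transcript of 1394 nt is of the length class in which most genes were higher, and with the trend removed its log2 fold change was -0.52 (adjusted p = 0.00323). In FPKM as deposited the Adm call was lost in most settings: with median-ratio scaling (adjusted p = 0.0768), no filter (0.07), the replicate block (0.0954), limma without its variance trend (0.0544) and limma-voom on recovered reads (0.078), and without WT replicate 2 (adjusted p = 0.118), WT replicate 3 (0.067), KO replicate 2 (0.108), KO replicate 3 (0.0847) or KO replicate 4 (0.0673). Calca, which encodes calcitonin and CGRP, was near 0, at 0.0615 FPKM in WT and 0.00382 in KO on average. Markers of lymphatic endothelium, where CALCRL and RAMP2 are also prominent, were lower in KO. Of 5 tested lymphatic markers 3 fell in limma and 4 with the trend removed, against 25.8% and 9.49% of all tested genes. The 6 listed genes summed to 163.7 to 191 FPKM in WT and 83.3 to 133.6 in KO. The part of lymphatic cells in the Calcrl value was not tested.

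Both adhesion receptors fell. Adgrf5 (ID 224792), also known as Gpr116, lies on chromosome 17 from 43360329 to 43459557 and had the largest fall of the 9 in the values as deposited. It had 218.5, 240.7 and 244.8 FPKM in WT and 152.7, 144.4 and 127.4 in KO, with a clear gap between genotypes (log2 fold change -0.73, SE 0.085, interval -0.92 to -0.54, adjusted p = 0.000518). Adgrf5 has the longest transcript of the 9, at 9423 nt. Genes between 8379 and 10587 nt had a median of -0.43, and 71.8% of those 500 fell. With the trend removed Adgrf5 was at -0.33 (interval -0.50 to -0.17, adjusted p = 0.0158), a smaller fall than those of Calcrl and S1pr1.

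Adgrl4 (ID 170757), formerly Eltd1, is known for its expression in growing vessels and lies on chromosome 3 from 151437882 to 151545081. Its WT libraries were close together, at 142.3, 141.1 and 146.6 FPKM, and all KO libraries were lower, at 115.4, 113.1 and 98.3. Its log2 fold change was -0.40 (SE 0.077, interval -0.57 to -0.22, adjusted p = 0.00313). With the trend removed it was -0.27 (adjusted p = 0.0238), beside a median of -0.12 in genes of 3929 to 4289 nt.

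Of 27 other adhesion receptors listed 8 were tested. Of these 6 fell and none rose in limma, against 25.8% and 18.3% of all tested genes, with a median of -0.30. With the length trend removed 1 fell, against 9.49% of all tested genes, and the list median was -0.09. The number that fell was 2 without WT replicate 4 and 3 without WT replicate 3, KO replicate 2 or KO replicate 4, and 3 with median-ratio scaling or the replicate block. Adgrl2, a latrophilin, fell from 32.2 ± 2.65 to 19.2 ± 1.31 FPKM (adjusted p = 0.000522, and 0.0101 as adjusted p with the trend removed). Adgra2, a co-receptor of WNT7 signalling also called Gpr124, fell from 19.6 ± 1.59 to 13.6 ± 0.861 FPKM, and Adgra3 from 8.89 ± 1.18 to 6.78 ± 0.677. For Adgra2 and Adgra3 the adjusted p was 0.061 and 0.239 with the trend removed. The Adgra3 call was also lost with no filter (adjusted p = 0.0948), with quantile normalization (0.0911) and without WT replicate 2 (adjusted p = 0.0932), WT replicate 4 (0.0753), KO replicate 2 (0.0739) or KO replicate 3 (0.085). Adgrl4 and Adgrf5 provided 63.1% to 64.6% of the FPKM summed over the 26 adhesion receptors in the table in WT and 59.3% to 60.3% in KO, with no overlap in FPKM as deposited.

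Lpar6 rose. The gene (ID 67168) spans chromosome 14 from 73237891 to 73240358, inside the span of the retinoblastoma gene Rb1 (73192858 to 73325951). Lpar6 had 23.4, 24.2 and 22.4 FPKM in WT and 37, 29.4 and 36.6 in KO, and all KO libraries were above all WT libraries. The log2 fold change was 0.53 (SE 0.094, interval 0.32 to 0.74, adjusted p = 0.00194). With the length trend removed it was 0.45 (adjusted p = 0.0121), and genes between 2350 and 2591 nt, around its 2468 nt, had a median of 0.07. The sources used here do not state whether strand was used in counting, so reads of Rb1 and Lpar6 may not be fully separated. Rb1 went the other way, from 7.26 ± 0.45 to 5.69 ± 0.342 FPKM (log2 fold change -0.30, adjusted p = 0.0187, and 0.368 as adjusted p with the trend removed).

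Lpar6 was the predominant LPA receptor transcript, with 86.1% to 90.6% of the FPKM of the 6 receptors in WT and 92.9% to 94.5% in KO, in FPKM as deposited. Next to it Lpar4 was at 2.95 ± 0.587 FPKM in WT and 2.15 ± 0.208 in KO (adjusted p = 0.0579). Enpp2, which encodes the LPA-producing enzyme autotaxin, was low and overlapped, at 2.12 ± 0.689 and 2.01 ± 0.131 FPKM (adjusted p = 0.893). Of 12 tested markers of leukocytes, some of which express Lpar6, 9 rose (5 with the trend removed), against 18.3% and 9.37% of all tested genes. The 13 listed genes summed to 111.1 to 244.7 FPKM in WT and 272.2 to 397.3 in KO. The part of leukocytes in the Lpar6 value was not tested.

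Gpr4, the proton-sensing receptor gene (ID 319197, chromosome 7 from 19212538 to 19224176), had the smallest change of the 9 in FPKM as deposited. It had 47.4, 50.5 and 50.6 FPKM in WT and 48.7, 48 and 45 in KO, and the ranges overlapped. The log2 fold change was -0.07 (SE 0.068, interval -0.22 to 0.09, adjusted p = 0.46), which bounds a difference on either side without showing that there was none. It was -0.09 with the length trend removed (adjusted p = 0.392), and Ramp2 and Ramp3 were then nearer to 0, as were Aplnr and Ramp2 with quantile normalization. In the list of LPA and proton-sensing genes 1 of 4 tested genes rose, against 18.3% of all tested genes. This was Plpp2, a lipid phosphatase gene (6.65 ± 0.775 to 8.45 ± 0.784 FPKM, adjusted p = 0.0378). The Plpp2 call was lost with the trend removed (adjusted p = 0.62). It was also lost with no filter (adjusted p = 0.106), the replicate block (0.084) and limma-voom on recovered reads (0.073), and without WT replicate 3 (adjusted p = 0.113), WT replicate 4 (0.0679), KO replicate 3 (0.109) or KO replicate 4 (0.104).

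**Figure D3:**
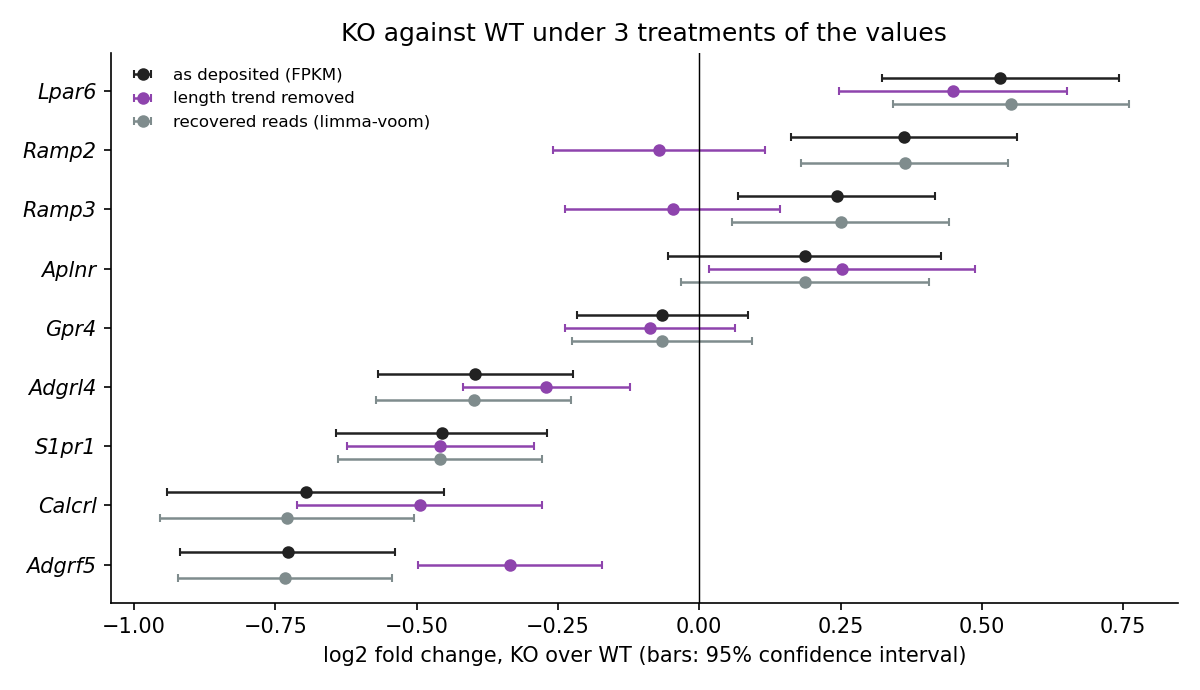
Log2 fold change, KO over WT, of the 9 genes with 95% confidence intervals, from FPKM as deposited, with the length trend removed, and from recovered reads with limma-voom. The intervals of Ramp2 and Ramp3 cover 0 with the length trend removed, while those of Lpar6, Adgrl4, S1pr1, Calcrl and Adgrf5 stay on 1 side of it in all 3.

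Among the 9 the changes tended to fall with transcript length, as across all tested genes, though not in strict order. From the shortest to the longest, the log2 fold changes were 0.36 (Ramp2, 872 nt), 0.24 (Ramp3, 1397 nt), 0.53 (Lpar6, 2468 nt), -0.07 (Gpr4, 2884 nt), -0.46 (S1pr1, 3029 nt), 0.19 (Aplnr, 3564 nt), -0.40 (Adgrl4, 4106 nt), -0.70 (Calcrl, 4996 nt) and -0.73 (Adgrf5, 9423 nt). Spearman's rho over these 9 genes, which share the same 6 libraries, was -0.87, beside -0.72 over all tested genes. Ramp2, Ramp3 and Gpr4 lay within 0.1 of the median of genes of their length, Lpar6 and Aplnr lay above theirs, and S1pr1, Calcrl, Adgrl4 and Adgrf5 lay below.

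**Figure D4:**
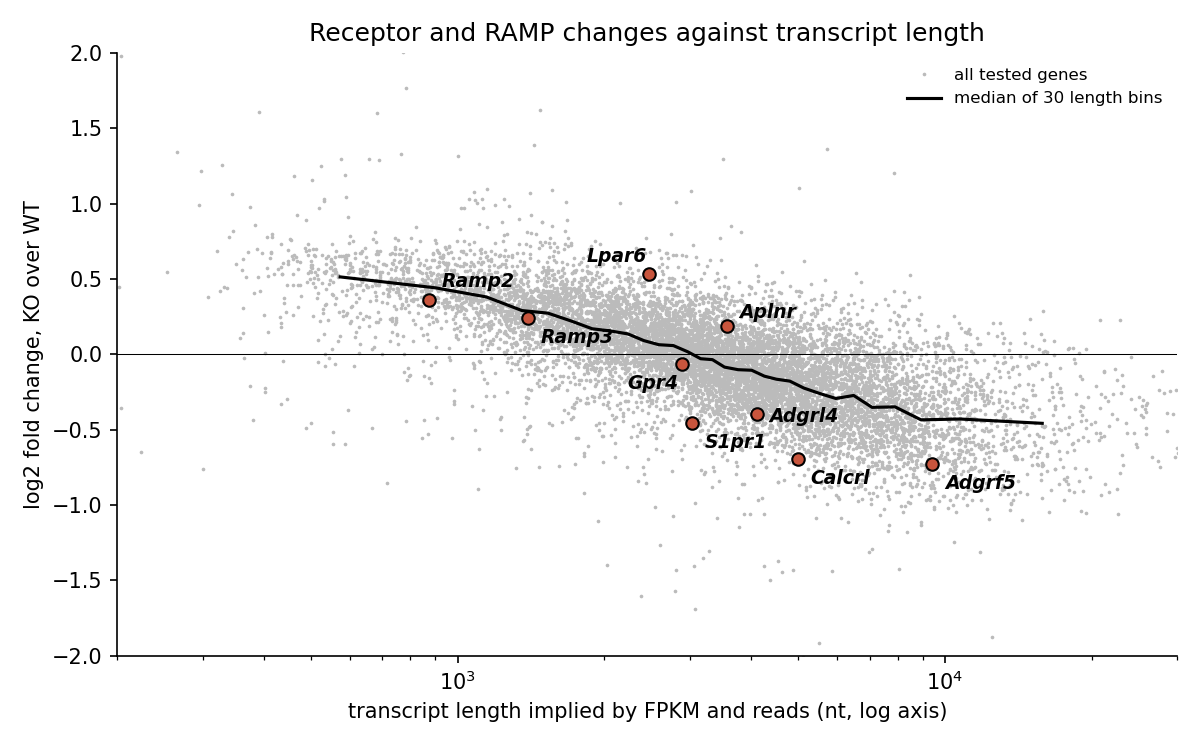
Log2 fold change (KO over WT) against transcript length on a log axis for all tested genes with a length (grey points, with values beyond the axis limits not shown) and the 9 genes (red). The black line is the median of 30 length bins. Ramp2, Ramp3 and Gpr4 lie near it, Lpar6 and Aplnr above it, and S1pr1, Calcrl, Adgrl4 and Adgrf5 below it.

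Reads recovered from the FPKM values gave the same calls for the 9 genes. These reads are a rescaling of the same values, and the authors' comparison used the same 6 libraries, so neither is independent support. In limma-voom 4 fell, against 27.7% of tested genes, and 3 rose, against 17.3%. In the authors' deposited table, at q under 0.05, the same 4 were lower (15.7% of its genes) and 4 were higher (13.6%), Aplnr being the additional one. Among the 9 genes the largest fall in the authors' deposited table was that of Adgrf5 (log2 fold change -0.67, q = 1.08e-12), and the largest rise that of Lpar6 (0.62, q = 7.43e-08). The summed FPKM of the 9 genes overlapped between genotypes, at 1328 ± 32.1 in WT and 1286 ± 48.1 in KO (exact two-sided permutation p = 0.3, adjusted p = 0.4).

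Among other receptors of endothelium, 54 were listed and 29 tested. Of these 12 fell and none rose in limma, against 25.8% and 18.3% of all tested genes, with a median of -0.17. With the length trend removed 9 fell and 1 rose, against 9.49% and 9.37% of all tested genes. The frizzled genes Fzd4, a receptor of norrin and WNT ligands, and Fzd8 fell from 50.8 ± 3.12 to 27.2 ± 3.2 FPKM (adjusted p = 0.000445) and from 7.07 ± 0.155 to 3.81 ± 0.215. Ptger4, a prostaglandin E2 receptor gene, fell from 8.63 ± 1.69 to 4.18 ± 0.0537 FPKM (adjusted p = 0.000694). These 3 were called lower with the trend removed as well, with adjusted p of 0.00226 to 0.0042.

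Downstream of the receptors, G protein subunit genes moved in both directions. Of 18 tested, 6 rose and 4 fell in limma (median -0.05), against 18.3% and 25.8% of all tested genes. With the trend removed 2 rose and 4 fell, against 9.37% and 9.49%. With quantile normalization 4 rose and 7 fell, and without WT replicate 2 or WT replicate 4 the number that fell was 2. Gnaq, the Gq alpha subunit gene, fell from 14.4 ± 1.45 to 7.79 ± 0.711 FPKM and Gna13 from 10.7 ± 0.729 to 6.87 ± 0.426 (adjusted p = 0.00641 and 0.0353 with the trend removed). Gngt2, a gamma subunit gene with a transcript of 914 nt, rose from 132.2 ± 5.49 to 187.9 ± 7.3 FPKM, and with the trend removed its adjusted p was 0.265.

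Genes of receptor desensitization and G protein shutdown were also mixed, with 4 of 16 tested higher, 5 lower and a median of -0.12. Of all tested genes 18.3% were higher and 25.8% lower. With the trend removed 2 of the 16 were higher and 2 lower, against 9.37% and 9.49% of all tested genes. The number lower was 2 without WT replicate 4 or KO replicate 4 and with the replicate block, and 3 without WT replicate 2 or KO replicate 2, with no filter or with median-ratio scaling. Rgs10, whose product speeds GTP hydrolysis by Gi proteins, rose from 6.17 ± 0.785 to 11 ± 1.17 FPKM (adjusted p = 0.000893, and 0.0117 as adjusted p with the trend removed). The beta-arrestin gene Arrb1 fell from 26 ± 2.41 to 16.8 ± 1.62 FPKM, and its adjusted p was 0.0622 with the trend removed. Rgs5, itself one of the mural markers that fell, went from 194.7 ± 27.8 to 109.4 ± 28.9 FPKM (adjusted p = 0.025 with the trend removed).

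Of 26 tested genes of cyclic AMP and Rap1 signalling, on which receptors of the Gs class act, 13 fell and none rose in limma (median -0.24). Of all tested genes 25.8% fell and 18.3% rose. With the trend removed 5 of the 26 fell and 3 rose, against 9.49% and 9.37% of all tested genes, and the list median was 0.00. Where the filter was 5 FPKM, 8 fell. Akap12, a protein kinase A anchoring gene, fell from 48.5 ± 4.78 to 28 ± 2.43 FPKM (adjusted p = 0.000522, and 0.00495 as adjusted p with the trend removed). Creb1, the cyclic AMP response factor gene, fell from 6.1 ± 0.517 to 3.3 ± 0.421 FPKM, and the adenylyl cyclase gene Adcy9 from 3.13 ± 0.336 to 1.51 ± 0.242 (adjusted p = 0.0246 and 0.0462 with the trend removed).

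**Figure D5:**
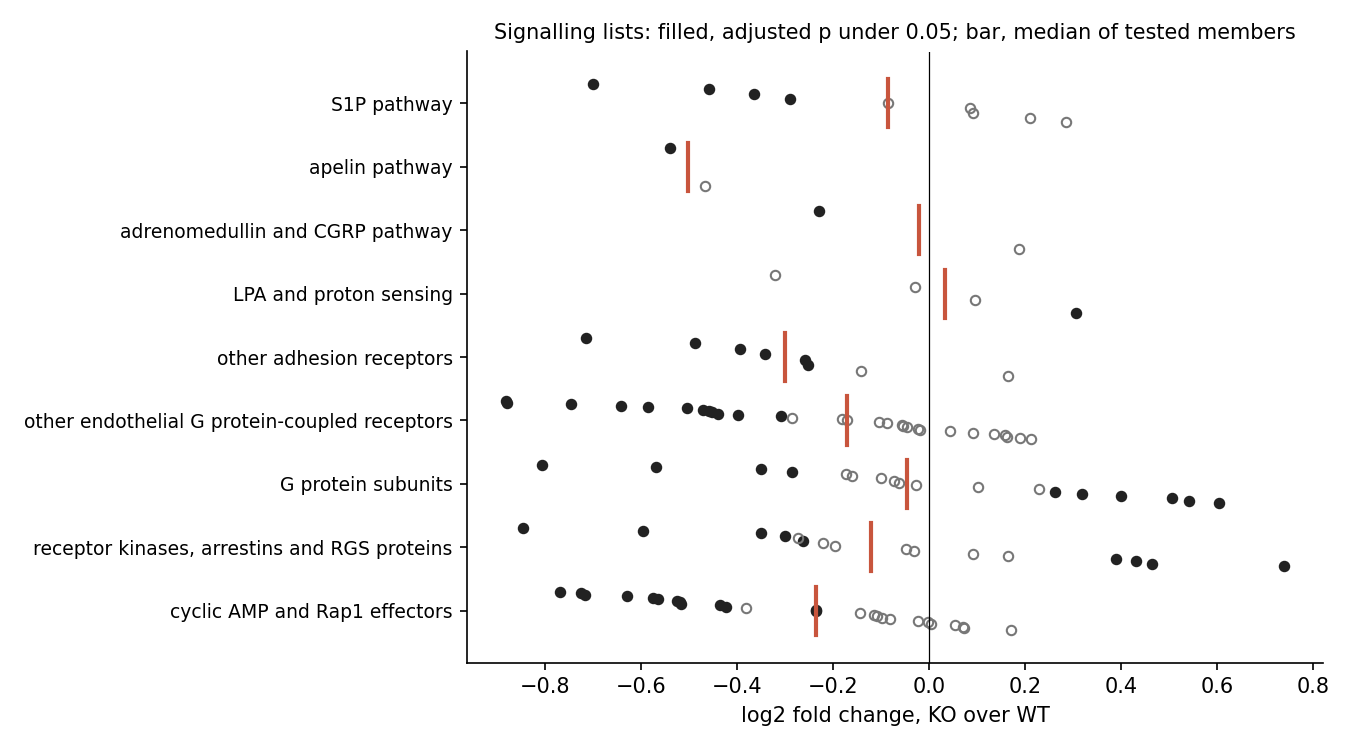
Log2 fold change, KO over WT, of every tested gene in the 9 lists of pathway genes. Filled points passed an adjusted p of 0.05, open points did not, and red bars are list medians; most called points lie below 0 except among G protein subunits and regulators, where calls lie on both sides, and among LPA and proton-sensing genes, where the 1 called point lies above 0.

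Marker levels of other cells are given here for the whole preparation. The counts stand beside 25.8% of all tested genes lower and 18.3% higher in limma. With the length trend removed these shares were 9.49% and 9.37%. Of 5 tested fibroblast markers all 5 fell, 4 with the trend removed (summed level 23.2 to 26 FPKM in WT and 11.7 to 14.4 in KO) and of 3 endocardial markers all 3 fell, 2 with the trend removed (27.3 to 28.8 and 12.5 to 15.3 FPKM). All 4 haemoglobin genes rose (246.4 to 371 and 385.9 to 557.1 FPKM), none of the 4 with the length trend removed. Of 7 tested cardiomyocyte markers 2 rose and 1 fell (1 and 0 with the trend removed), with sums that overlapped (131.1 to 187.4 and 172.9 to 207.8 FPKM). No marker was at 0 in any library. Of the 10 endothelial markers 4 fell and 2 rose (3 and 0 with the trend removed). In FPKM as deposited the falls of S1pr1, Calcrl, Adgrl4 and Adgrf5 thus stand beside both falls and rises in other endothelial genes. Kdr was at 245.5 to 285.8 FPKM in WT and 121.9 to 171.9 in KO. Egfl7 was at 722.5 to 850.5 FPKM in WT and 936.9 to 1046 in KO, and Emcn at 331.5 to 345.3 and 377.3 to 422.9.

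The gene most like each of the 9 over the 6 libraries, by Pearson's r of log2(FPKM + 1), was Appl1 for S1pr1, Clec14a for Aplnr, Dnajc13 for Calcrl, Antkmt for Ramp2, Pcp4l1 for Ramp3, Dcaf1 for Adgrl4, Tns1 for Adgrf5, Lrwd1 for Lpar6 and Pan2 for Gpr4, with r from 0.987 to 0.9997. With 6 libraries in 2 groups such values are easily reached. S1pr1 had 1129 genes with r above 0.95 and Adgrf5 had 1097, while Aplnr had 17 and Gpr4 19.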

How the data were processed

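For 20893 genes in 6 libraries the authors deposited FPKM values. Their second table covers 17686 genes and holds, per the file headers, group means of DESeq2-normalized signal, the KO over WT ratio, its log2 value, the p-value and the q-value. Libraries were made from total RNA (TRIzol) with a stranded TruSeq mRNA kit, per the labels' protocols. Per the submitters' processing notes, the tools were DESeq2 1.22.1, featureCounts 1.6.2, GATK 4.0.11.0, HISAT2 2.1.0, fastp 0.19.3, Cufflinks and StringTie 1.3.4d, with mm10 as the build and no roles given. RefSeq coordinates of GRCm38.p6 were joined by gene ID (20334 of 20893 matched).

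The tested genes had 1 FPKM or more in 3 or more libraries. On log2(FPKM + 1), limma 3.58.1 in R 4.3.3 was fitted with a mean-variance trend and genotype as the only term. FPKM and group means together gave whole reads (100.0% of values up to 1000 reads within 0.05 of a whole number) and implied transcript lengths for all but 3207 genes. The length trend was a loess (span 0.5) of each library's deviation from the gene mean. Neighbours in length are the 500 tested genes nearest to a member. Ratios and sums were compared with exact permutation tests (scipy 1.17.1, Python 3.11.15). The ratios had no pseudocount, except with the length trend removed, where they were differences of log2(FPKM + 1) values. The procedure was tested on simulated counts without a length trend, so that test does not cover how well such a trend is removed. Other settings were the pseudocount, filter, scaling, variance trend, replicate block, recovered reads and each library left out.

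The members, the 9 pathway lists (217 symbols, of which 202 were found) and the marker lists were chosen with earlier results of these data known. Named are all members, up to 3 called genes per list by smallest p, ligand genes, and the gene most like each member. Rb1, Lpar4 and the markers Kdr, Egfl7 and Emcn were named after their values were seen. No sequences were used here.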

Additional observations from a re-analysis of the deposited data

How the results depend on the processing

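The calls of S1pr1 and Calcrl held in limma under all 16 other settings, with log2 fold changes from -0.62 to -0.39 and from -0.79 to -0.49. Adgrf5, Adgrl4 and Lpar6 lost theirs only with the replicate block and the length trend removed together (adjusted p = 0.0618, 0.0763 and 0.0509 in limma). In that setting S1pr3, Sgpp1, Spns2, Sphk1, Gna13, Rgs5, Creb1 and Adcy9, called with the trend alone removed, also lost their calls (adjusted p = 0.0732 to 0.136). Ackr3, Adm, Adgrl2, Fzd4, Fzd8, Ptger4, Gnaq, Rgs10 and Akap12 kept theirs. Members called higher numbered 1 with quantile normalization (2207 of all genes higher, 2359 lower) or the length trend removed and 0 with that removal and the block together, where 2 were called lower; without 1 library 2 to 3 were higher and 4 lower. Ramp2 turned to -0.071 and Ramp3 to -0.047 with the length trend removed, with or without the block. Aplnr turned to -0.012 with quantile normalization. Enpp2 turned to 0.087 with quantile normalization, 0.0034 with median-ratio scaling, 0.085 with the length trend removed (with or without the block) and 0.13 without WT replicate 3, and Spns2 turned to -0.017 with quantile normalization. The log2 difference of the summed FPKM turned from -0.05 to 0.0053 with median-ratio scaling, and that of Ramp2 to Ramp3 to -0.024 with the length trend removed. With the length trend removed 2039 genes were called, 1013 higher and 1026 lower, against 4772, 1982 and 2790; with the replicate block as well 735, 323 and 412. The cause was not tested. The replicate number as a block alone gave 1542 higher and 2207 lower genes and ended the Ramp3 call (adjusted p = 0.0837 in limma). Same-numbered libraries correlated at -0.35 to -0.19 in their deviations from group means. With so few libraries per group these deviations are tied to each other. The values therefore cannot show whether same-numbered libraries were handled together. Without 1 library 3284 to 4346 genes were called, 1397 to 1994 of them higher and 1878 to 2581 lower, the log2 difference of Ramp2 to Calcrl was 0.95 to 1.25, of Ramp3 to Calcrl 0.87 to 1.13, of Ramp2 to Ramp3 0.04 to 0.19, and of the sum -0.08 to -0.03.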
